A study of Mus musculus with 9 samples.

Results

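Cytoplasmic dynein is the motor that carries cargo towards the minus ends of microtubules, and dynactin is the complex that joins it to cargo and keeps it moving. The genes described here are all those in the count table whose symbol starts with Dync, Dctn or Dynl, with the regulators Pafah1b1, Nde1 and Ndel1 and the adaptors Bicd1, Bicd2 and Ninl added by name. This gave 28 of the 19991 genes, by a rule that uses gene names alone. They fall into 2 heavy chains, 2 intermediate chains, 3 light intermediate chains, 2 light chains of the LC8 type, 2 of the roadblock type and 5 of the Tctex type, 6 dynactin subunits and 6 regulators and adaptors.

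The RNA came from the testis of ICR mice, which are outbred, at an age of 8 weeks. The mice had been injected with PBS (Control), with AZ82 at 1 µM or with CW069 at 50 µM, and each group has 3 libraries. Both compounds are given in the series as inhibitors of KIFC1, a kinesin that moves towards the minus end of microtubules as dynein does. The route, the volume and the time after injection are not given in the sources used here, nor is it said whether the 3 libraries of a group came from separate animals, so each p-value measures the spread between these libraries, which may be technical.

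A dynein motor is built on a pair of heavy chains, whose ring of ATPase modules walks along the microtubule. Intermediate and light intermediate chains bind the tail of the heavy chain, and the small light chains dock on the intermediate chains. Adaptors such as BICD2 tie dynein to dynactin, and LIS1 (the product of Pafah1b1), NDE1 and NDEL1 regulate the motor. In the testis, dynein works in the meiotic spindle, in the movement of chromosomes along the nuclear envelope in meiotic prophase, and on the manchette, the microtubule skirt that shapes the spermatid head. Dync2h1 and Dync2li1 belong to the other cytoplasmic dynein, which drives intraflagellar transport from the tip of a cilium back to its base. The LC8 and Tctex light chains are also found outside dynein, in axonemal motors and other complexes.

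The sequences of 2 sets of light chain genes bear on which counts can be read gene by gene. Dynlt1a, Dynlt1b, Dynlt1c and Dynlt1f are copies of the Tctex light chain gene Dynlt1. Their coding sequences are 339 bases long without the stop codon in the GENCODE M21 transcripts. Those of Dynlt1a, Dynlt1c and Dynlt1f are identical, and Dynlt1b differs from them at 1 base, C21A (the base of Dynlt1a first, positions counted from 1 at the A of the start codon), which changes none of the 113 codon products. The first 90 coding bases are shown, with the differing base in capitals.
Dynlt1a, Dynlt1c and Dynlt1f: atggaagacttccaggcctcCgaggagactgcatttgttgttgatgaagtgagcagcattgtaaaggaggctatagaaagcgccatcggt
Dynlt1b: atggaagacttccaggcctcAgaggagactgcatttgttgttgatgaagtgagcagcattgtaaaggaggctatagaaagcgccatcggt

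The LC8 genes Dynll1 and Dynll2 are shown for contrast, since they encode a near-identical protein from coding sequences that have diverged. Over 267 bases they differ at 50, an identity of 81.3%, yet only 6 of 89 codon products differ. Capitals mark the 18 of the first 90 bases that differ.
Dynll1: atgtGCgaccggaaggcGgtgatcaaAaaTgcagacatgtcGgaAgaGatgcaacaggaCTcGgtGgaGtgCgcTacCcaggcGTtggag
Dynll2: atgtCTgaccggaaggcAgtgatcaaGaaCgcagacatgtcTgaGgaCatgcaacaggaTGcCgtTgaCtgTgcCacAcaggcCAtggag

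A read that fits several genes equally well is lost or misplaced when reads are counted by gene. Every window of 100 bases along the longest coding transcript of each of the 28 genes was therefore looked up in the transcripts of all other genes. The share of windows found in another gene was 43.9% for Dynlt1a, 82% for Dynlt1b, 86.5% for Dynlt1c and 85.1% for Dynlt1f, and 0 for each of the other 24 genes, Dynll1 and Dynll2 included. Values of the 4 Dynlt1 copies are thus uncertain as values of single genes. With windows of 50 bases, Dynll1 (3.03%), Pafah1b1 (1.6%), Dctn5 (1.35%), Dctn1 (0.468%) and Dync1li1 (0.118%) shared some as well. The read length is not given in the sources used here.

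Total counts ran from 13856070 in Control 3 to 18102593 in CW069 3, and all 28 genes passed the filter on low counts that 15834 genes passed. Checked against testis markers, the germ cell, Sertoli and Leydig lists were detected in every library. Of the 4 epididymal markers, Lcn5, Lcn8 and Adam7 were at 0 in at least 1 library and Rnase10 was at 0 in none. Their sum ran from 2.50 to 5.17 CPM (counts scaled to the size of each library). Control 3 stood apart. Its 9 elongating spermatid markers were each the lowest of the 9 libraries, with a median log2 difference of -1.21 from the other Control libraries. They summed to 6546 CPM against 12768 to 19127 elsewhere. The summed round spermatid markers were also lowest there, at 882.2 CPM against 1038 to 1211. The summed spermatocyte markers were highest, at 1354 CPM against 1139 to 1319. Over the 28 dynein and dynactin genes the median difference from the other Control libraries was 0.03, and over all genes tested 0.0077. Of the 28, 7 genes were lowest of all 9 libraries in Control 3, namely Dynll1, Dynll2, Dynlrb2, Dctn4, Bicd2, Ndel1 and Pafah1b1. Of all 15834 genes tested, 2976 were lowest there, and the difference between these shares was not tested. The largest deficits were Dynll2 at -0.53 and Pafah1b1 at -0.32, and Dynlt1a was higher there by 2.0. In bulk RNA, fewer cells of a type and less RNA per cell cannot be told apart.

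**Figure D1:**
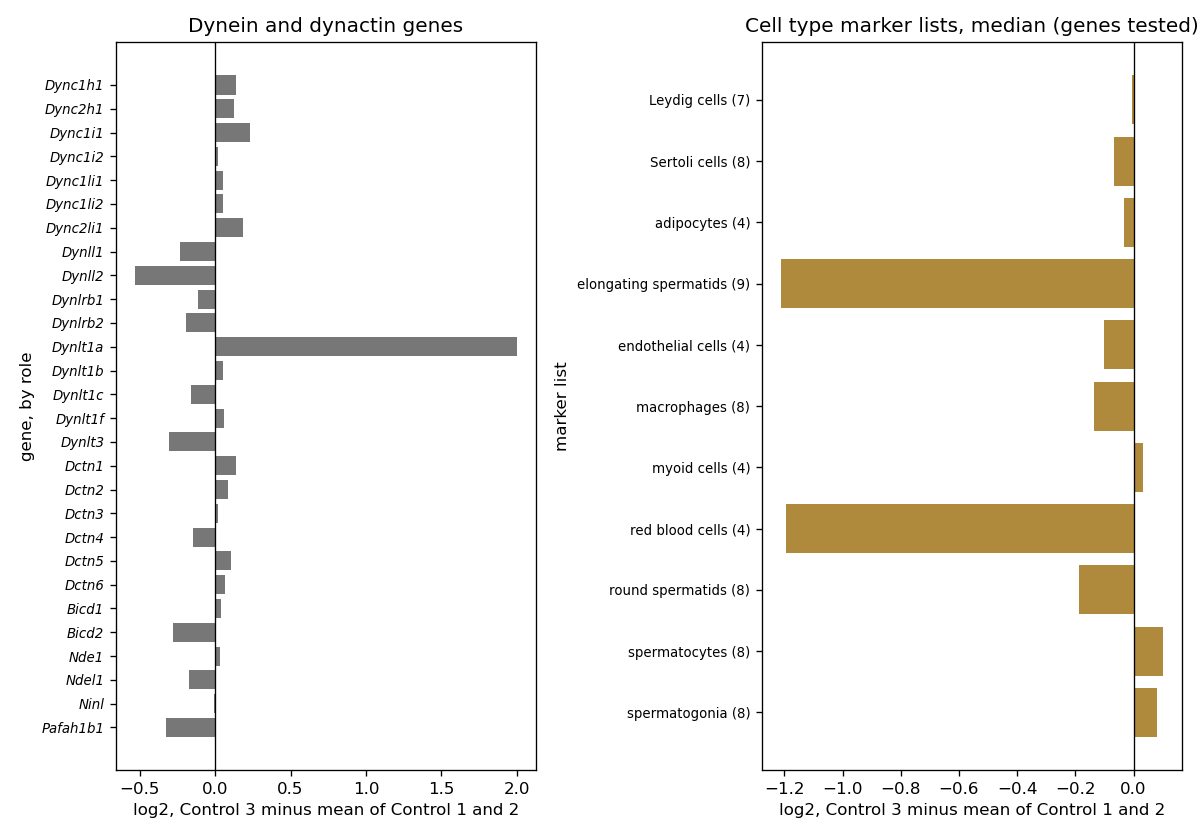
Difference between Control 3 and the mean of Control 1 and 2 on the log2 scale, for each of the 28 genes by role (left, 1 bar a gene) and as the median of each list of cell type markers (right, genes tested in brackets). The elongating spermatid list lies at -1.21 and the red blood cell list at -1.20, Dynll2 is the lowest of the 28 genes at -0.53, and Dynlt1a stands at 2.0.

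Levels of different genes were compared per length, as CPM per kilobase of the longest annotated transcript, in the Control libraries. With this length the highest was Dctn2, which encodes dynamitin, the dynactin subunit that builds the shoulder of the complex, at 130.8 ± 6.50 (SD, n = 3, as for all levels). Next came the roadblock light chain Dynlrb2 at 115.3 ± 8.68 and the Tctex light chain Dynlt1b at 111.6 ± 5.74, which did not differ from each other beyond their spread. The LC8 light chains Dynll1, at 94.4 ± 8.77, and Dynll2, at 87.2 ± 17.5, and the heavy chain Dync1h1, at 81.6 ± 4.73, came next, and these 3 also overlapped.

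In most chain families 1 paralog was well above another per length. The heavy chain of the other dynein, Dync2h1, was at 19.6 ± 1.02. Among intermediate chains Dync1i2 was at 38.3 ± 2.13 and Dync1i1, the form known best from neurons, at 3.44 ± 0.343. Among light intermediate chains Dync1li2 was at 36.3 ± 2.43, Dync2li1 at 24.0 ± 2.38 and Dync1li1 at 4.92 ± 0.240. Dynlrb1 was at 19.5 ± 1.07, below Dynlrb2. The LC8 pair overlapped with this length, but not with the mean length over a gene's transcripts, where Dynll1 was at 194.1 ± 18.0 and Dynll2 at 109.8 ± 22.0.

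The remaining Tctex genes were Dynlt1f at 42.9 ± 1.12, Dynlt1a at 30.5 ± 25.0, Dynlt1c at 11.7 ± 0.833 and Dynlt3, the more distant paralog, at 11.3 ± 1.53, all in CPM per kilobase. The order of all 28 genes depended on the transcript used as length. With the mean length over transcripts, Dync1h1 was highest at 504.3 and Dctn2 next at 254.8. With the longest protein-coding transcript, a choice made after seeing the data, Dynlt1f was at 197, above Dctn2 at 187.5 and Dynlt1b at 111.6.

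The other dynactin subunits lay below Dctn2. Dctn6 was at 39.6 ± 1.19, Dctn3 at 30.2 ± 0.717, Dctn4 at 27.2 ± 2.50, Dctn1, the Glued subunit that reaches out to the microtubule, at 24.0 ± 1.37 and Dctn5 at 16.4 ± 1.25. Among regulators Pafah1b1 was at 37.6 ± 5.23 and Ndel1 at 30.9 ± 2.39, with overlap between libraries, and Nde1 was at 8.89 ± 0.543. The adaptors Ninl, which links dynein to the centrosome and the ciliary base, and Bicd2 were at 14.8 ± 0.0687 and 13.4 ± 2.23. Bicd1 was the lowest of the 28 at 0.190 ± 0.0356, resting on 24 to 38 counts per library.

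**Figure D2:**
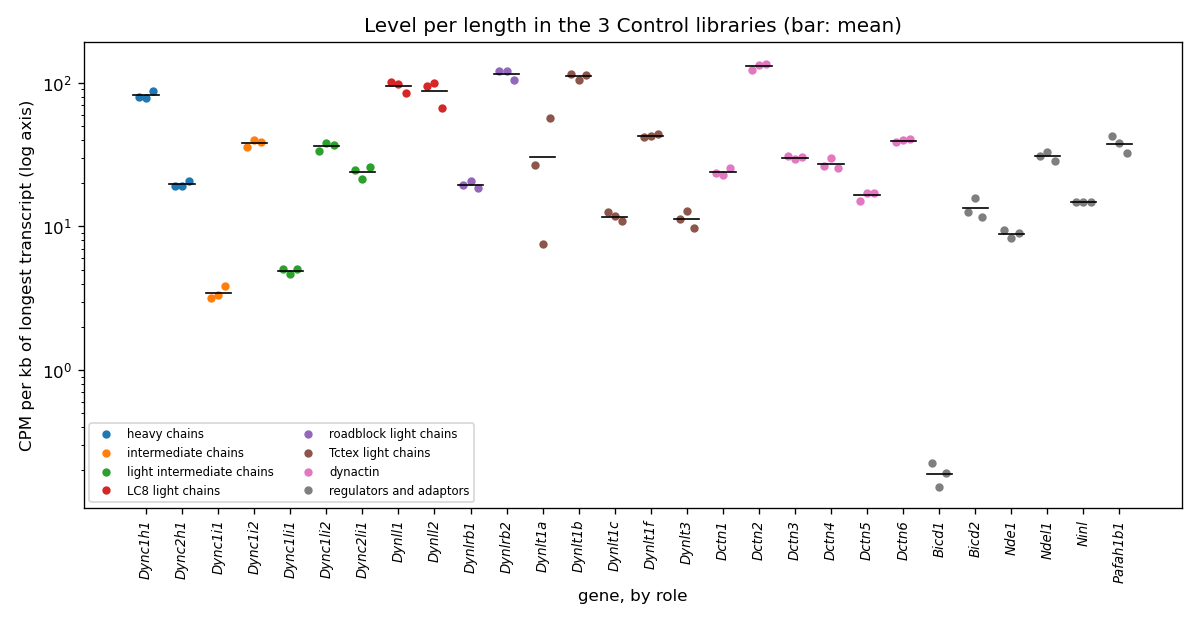
Level per length (CPM per kilobase of longest transcript, log axis) of the 28 genes in the 3 Control libraries, 1 point a library with the mean as a bar, coloured by role. Dctn2, Dynlrb2 and Dynlt1b are highest, Bicd1 is lowest, and the 3 points of Dynlt1a are spread over most of a decade.

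The design asks first whether these transcripts differed after either inhibitor. No gene of the 28 passed an adjusted p of 0.05 after AZ82 or after CW069 in the edgeR quasi-likelihood test, which adjusts over all 15834 genes tested, and 0% of all genes passed in either comparison. DESeq2 and limma-voom also called 0 of the 28. At an unadjusted p under 0.05 there were 2 genes after AZ82, Ndel1 and Dynlt1c, both higher, against 8.84% of all genes in that comparison (4.04% higher and 4.79% lower), and 0 after CW069, against 7.34% of all genes. In DESeq2 these counts were 2 and 0, and in limma-voom 1 and 0. Single libraries changed the edgeR count after AZ82, which was 0 without Control 1 and 0 without AZ82 1. It rose to 3 without Control 2 and to 3 without CW069 3. The edgeR count after CW069 became 1 with RLE scaling factors, 1 without Control 2 and 1 without Control 3. Without Control 3 the count after AZ82 was 1, Dynlt3, lower at -0.28 ± 0.13 (edgeR unadjusted p = 0.0469, adjusted p = 0.637). Ndel1 and Dynlt1c then missed the threshold (edgeR unadjusted p = 0.129, adjusted p = 0.692, and unadjusted p = 0.0952, adjusted p = 0.667).

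For most of the genes the 95% interval lay within 1.5-fold of Control, measured by the spread between these libraries, which may be technical. After AZ82, 24 of the 28 had a 95% interval that lay within 1.5-fold of Control in either direction, against 68.8% of all genes, the exceptions being Dync1i1, Dynlt1a, Dynlt1c and Bicd1. After CW069 it was 26 of 28, all but Dynlt1a and Bicd1, against 70.4% of all genes. The median log2 fold change was 0.04 after each inhibitor, with 20 genes above 0 and 8 below after AZ82 and 16 above and 12 below after CW069. The median after CW069 was 0.0039 without CW069 1 and 0.0131 without CW069 2. Over all genes tested the medians were -0.0010 and -0.0038, with 49.7% and 49% above 0. Both comparisons use the same Control libraries.

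**Figure D3:**
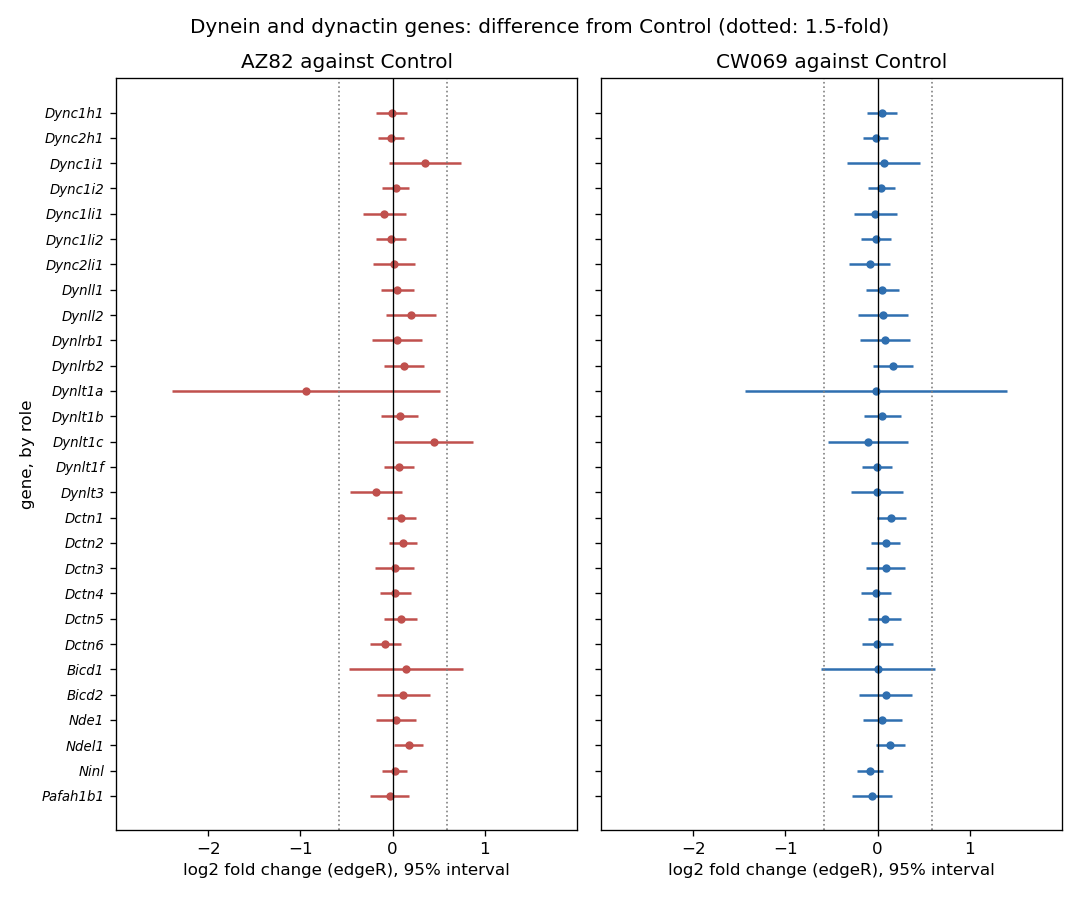
Log2 fold change of each of the 28 genes against Control after AZ82 (left) and CW069 (right) from edgeR, with points as estimates and bars as 95% intervals. The dotted lines mark 1.5-fold, and the intervals of Dynlt1a are the widest in both panels.

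The heavy chain Dync1h1, the motor subunit itself, was at 1144, 1120 and 1248 CPM in Control 1 to 3, at 1234, 1145 and 1105 CPM in AZ82 1 to 3 and at 1190, 1171 and 1267 CPM in CW069 1 to 3. The 3 groups overlapped throughout. Its log2 fold change was -0.01 ± 0.07 (SE; 95% interval -0.18 to 0.15; edgeR adjusted p = 0.970) after AZ82 and 0.05 ± 0.07 (-0.12 to 0.21; adjusted p = 0.909) after CW069. Dync2h1 lay between 269.5 and 296.6 CPM in all 9 libraries, the narrowest spread within groups of the 28 genes (SD of 0.05 on the log2 scale). The ratio of Dync1h1 to Dync2h1 counts within a library, which does not depend on scaling, stayed between 4.01 and 4.63.

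Of the intermediate chains, which carry the light chains and bind dynactin, Dync1i2 was at 163, 182 and 174 CPM in Control, 178.5, 179 and 173 CPM after AZ82 and 187, 175 and 173 CPM after CW069. No group stood apart, and the log2 fold changes were 0.03 ± 0.06 (edgeR adjusted p = 0.896) and 0.04 ± 0.06 (adjusted p = 0.908). The scarcer Dync1i1 was at 8.56, 9.11 and 10.4 CPM in Control, 13.4, 12.5 and 9.96 CPM after AZ82 and 10.7, 11.5 and 7.33 CPM after CW069. AZ82 1 and 2 were above every other library, but AZ82 3 lay inside the Control range, and CW069 3 was the lowest of all. Its log2 fold change was 0.35 ± 0.18 (-0.04 to 0.75; edgeR adjusted p = 0.584) after AZ82 and 0.07 ± 0.18 (-0.33 to 0.46; adjusted p = 0.958) after CW069.

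The light intermediate chains, which bind the adaptors, moved little. Dync1li2 was at 155, 177 and 172 CPM in Control, 161, 175 and 162 CPM after AZ82 and 161, 177 and 161 CPM after CW069, with log2 fold changes of -0.02 ± 0.07 in each comparison (edgeR adjusted p = 0.954 and 0.977). Dync2li1, the partner of Dync2h1 in intraflagellar transport, was at 33.3, 29.0 and 35.3 CPM in Control, 30.2, 37.2 and 31.1 CPM after AZ82 and 31.4, 28.9 and 31.6 CPM after CW069. Its groups overlapped, at 0.01 ± 0.10 (edgeR adjusted p = 0.973) after AZ82 and -0.09 ± 0.10 (adjusted p = 0.862) after CW069. Dync1li1 ran from 10.5 to 13.2 CPM over the 9 libraries.

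Among the LC8 light chains, the dimers that dock on the intermediate chain, Dynll1 was at 226, 220.0 and 189 CPM in Control, 209, 223 and 226 CPM after AZ82 and 232, 208 and 217 CPM after CW069. Control 3 was its lowest library, and the log2 fold changes were 0.05 ± 0.08 in both comparisons (edgeR adjusted p = 0.854 and 0.913). Dynll2 was at 235, 247 and 166 CPM in Control, 251, 257 and 235 CPM after AZ82 and 224, 217 and 233 CPM after CW069. The single low value is that of Control 3, whose elongating spermatid markers were low as well. After AZ82 the log2 fold change of Dynll2 was 0.20 ± 0.12 (edgeR adjusted p = 0.629), and 0.04 with Control 3 left out. After CW069 it was 0.06 ± 0.12 (adjusted p = 0.937), and -0.10 with Control 3 left out.

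The roadblock light chain Dynlrb2, the form typical of ciliated tissue and testis, was at 63.4, 63.4 and 55.5 CPM in Control, 68.5, 72.7 and 56.6 CPM after AZ82 and 72.0, 64.7 and 68.3 CPM after CW069. All 3 CW069 libraries were above all 3 Control libraries. After CW069 its log2 fold change was 0.17 ± 0.10 (-0.05 to 0.39; edgeR adjusted p = 0.717), and 0.11 without Control 3. After AZ82 it was 0.12 ± 0.10 (adjusted p = 0.709) with overlap, and 0.05 without Control 3. Dynlrb1 ran from 13.8 to 17.9 CPM.

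Dynlt1a, 1 of the 4 Tctex light chain copies, varied more than any other of the 28 genes, and within groups rather than between them. It was at 95.3, 26.7 and 202 CPM in Control 1 to 3, at 28.2, 114 and 27.0 CPM in AZ82 1 to 3 and at 114, 95.7 and 111 CPM in CW069 1 to 3. Control 2, AZ82 1 and AZ82 3 lay at a low level between 26.7 and 28.2 CPM, 5 libraries between 95.3 and 114 CPM, and Control 3 alone at 202 CPM. These low values were not thin, since they rest on 374 to 416 counts. The within-group SD was 1.09 on the log2 scale, larger than in 99.3% of the genes tested, where the median of the 28 genes was 0.11 and of all genes 0.15.

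With such libraries in both Control and AZ82, the interval of its fold change was wide. For Dynlt1a it was -0.94 ± 0.66 (-2.39 to 0.51; edgeR adjusted p = 0.663) after AZ82 and -0.01 ± 0.64 (-1.43 to 1.40; adjusted p = 0.997) after CW069. Leaving out 1 library moved the first from -1.97 (without AZ82 2) to -0.11 (without Control 3) and the second from -0.48 (without Control 2) to 0.82 (without Control 3).

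Dynlt1b and Dynlt1f did not follow Dynlt1a. Dynlt1b was at 89.1, 80.9 and 88.1 CPM in Control, 82.4, 95.7 and 93.7 CPM after AZ82 and 99.6, 81.2 and 86.8 CPM after CW069, with log2 fold changes of 0.07 ± 0.09 (edgeR adjusted p = 0.804) and 0.05 ± 0.09 (adjusted p = 0.917). Dynlt1f, the copy with the most counts, ran only from 136.7 to 164.3 CPM. Summed over the 4 copies, the level ran from 296.8 to 481.8 CPM, a 1.62-fold range, and without Dynlt1a from 257.5 to 312.4 CPM, a 1.21-fold range. Dynlt1a itself ranged 7.57-fold and made up between 8.27% and 42% of the sum.

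Among the genes tested, Dynlt1a lies beside Dynlt1b in RefSeq gene order. Dynlt1a overlaps Tmem181a, a membrane protein gene on the opposite strand, by 1975 bases in GENCODE M21. Tmem181a was at 17.2, 8.22 and 19.5 CPM in Control, 9.90, 13.0 and 10.97 CPM after AZ82 and 16.6, 13.6 and 12.6 CPM after CW069. Its 3 lowest libraries were those at the low level of Dynlt1a, and its highest was Control 3. The library kit keeps the strand, but whether the counting used it is not given in the sources used here, so reads of the 2 genes may not have been told apart. Whether shared reads play a part in the levels of Dynlt1a was not tested.

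Dynlt1c was the other variable copy, at 40.7, 38.2 and 35.3 CPM in Control, 68.1, 38.9 and 48.4 CPM after AZ82 and 39.9, 39.7 and 27.2 CPM after CW069. AZ82 1 was far above all other libraries and AZ82 2 lay inside the Control range. Its highest libraries, AZ82 1 and AZ82 3, were both at the low level of Dynlt1a. Control 2, also at that level for Dynlt1a, was at 38.2 CPM for Dynlt1c. Of the 100-base windows of Dynlt1c, 49.4% were found in Dynlt1a. Whether shared reads play a part in the levels of Dynlt1c was not tested. After AZ82 the log2 fold change was 0.44 ± 0.20 (0.01 to 0.87; edgeR unadjusted p = 0.0449, adjusted p = 0.561), and 0.20 without AZ82 1. After CW069 it was -0.10 ± 0.20 (adjusted p = 0.931). Dynlt3 was at 24.6, 27.9 and 21.2 CPM in Control, 19.0, 23.3 and 22.7 CPM after AZ82 and 27.1, 25.3 and 21.2 CPM after CW069. Its groups overlapped, at -0.18 ± 0.13 (edgeR adjusted p = 0.663) after AZ82 and -0.0035 ± 0.13 (adjusted p = 0.997) after CW069.

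**Figure D4:**
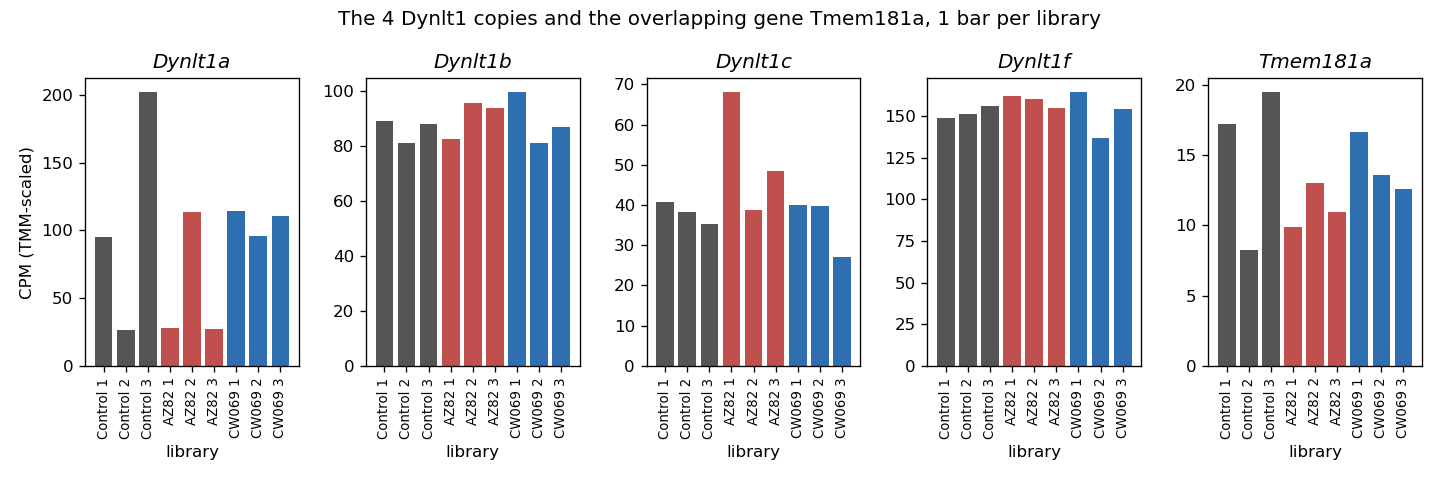
TMM-scaled CPM of the 4 Dynlt1 copies and of Tmem181a, the gene that overlaps Dynlt1a, with 1 bar a library and each panel on its own axis from 0. Dynlt1a and Tmem181a are lowest in Control 2, AZ82 1 and AZ82 3 and highest in Control 3, and Dynlt1b and Dynlt1f are nearly level.

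Of the dynactin subunits, Dctn1 was at 102, 98.5 and 110.0 CPM in Control, 116, 106 and 110 CPM after AZ82 and 110, 122 and 111 CPM after CW069. The 3 CW069 libraries sat just above the 3 Control libraries. Its log2 fold change was 0.15 ± 0.07 (-0.01 to 0.30; edgeR unadjusted p = 0.0619, adjusted p = 0.689) after CW069, the smallest p of the 28 in that comparison, and 0.09 ± 0.07 (adjusted p = 0.680) after AZ82. Leaving out CW069 2 gave 0.10 after CW069, and leaving out Control 3 gave 0.19 (edgeR unadjusted p = 0.0202, adjusted p = 0.486, and 0.486 to 0.95 over the alternatives).

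Dctn2, in the shoulder with Dctn3, was at 316, 339 and 348 CPM in Control, 382, 367 and 337 CPM after AZ82 and 351, 350 and 365 CPM after CW069. It was higher in all 3 CW069 libraries than in any Control library, by 0.09 ± 0.07 on the log2 scale (edgeR adjusted p = 0.778), and by 0.12 ± 0.07 (adjusted p = 0.623) after AZ82 with overlap. Dctn6, which caps the pointed end with Dctn5, was at 48.0, 49.6 and 51.0 CPM in Control, 46.4, 44.5 and 49.9 CPM after AZ82 and 53.5, 49.5 and 45.6 CPM after CW069. It stood at -0.08 ± 0.08 (edgeR adjusted p = 0.753) and -0.0007 ± 0.08 (adjusted p = 0.999). Dctn3 ranged from 27.0 to 34.0 CPM, Dctn4 from 110.0 to 130.3 CPM and Dctn5 from 37.6 to 46.3 CPM. None of Dctn1 to Dctn6 ranged more than 1.26-fold over the 9 libraries.

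Among the regulators, Ndel1, which tethers LIS1 to dynein, had the smallest unadjusted p of the 28 genes after AZ82. It was at 74.1, 79.1 and 67.7 CPM in Control, 84.9, 82.0 and 82.6 CPM after AZ82 and 79.4, 85.3 and 78.1 CPM after CW069. Every AZ82 library was above every Control library, and CW069 3 lay below Control 2. The log2 fold change was 0.18 ± 0.07 (0.02 to 0.33; edgeR unadjusted p = 0.0328, adjusted p = 0.554) after AZ82, and 0.12 without Control 3. Its adjusted p ran from 0.355 to 0.829 over the alternatives. After CW069 it was 0.14 ± 0.07 (-0.02 to 0.29; adjusted p = 0.698), and 0.08 without Control 3. The elongating spermatid markers were lowest in Control 3 as Ndel1 was. The summed round spermatid markers were higher in every AZ82 library (1101 to 1211 CPM) than in any Control library (882.2 to 1095 CPM). The summed macrophage markers were lower (98.45 to 135.8 CPM after AZ82 and 136.9 to 171.2 CPM in Control). The part of these marker lists in the differences of Ndel1 was not tested.

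Pafah1b1, which encodes the dynein regulator LIS1, was at 365, 326 and 276 CPM in Control, 312, 327 and 308 CPM after AZ82 and 310, 290 and 328.5 CPM after CW069. Control held both its highest and its lowest library. The log2 fold change was -0.03 ± 0.10 (-0.25 to 0.18; edgeR adjusted p = 0.932) after AZ82 and -0.06 ± 0.10 (-0.27 to 0.15; adjusted p = 0.913) after CW069. Without Control 3 these were -0.14 and -0.16. Nde1, the paralog of Ndel1, ran from 19.4 to 23.4 CPM.

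The adaptor Ninl was nearly constant, at 75.7, 75.4 and 75.0 CPM in Control, 79.6, 74.8 and 75.0 CPM after AZ82 and 72.0, 74.3 and 67.2 CPM after CW069. All CW069 libraries lay below all Control libraries, by 0.08 ± 0.06 on the log2 scale (edgeR adjusted p = 0.766), and the value after AZ82 was 0.02 ± 0.06 (adjusted p = 0.932). Bicd2 ran from 73.6 to 105.0 CPM and Bicd1 from 1.36 to 2.74 CPM, both with overlap of all groups.

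Genes whose groups did not overlap were counted beside the same count over all genes, and the difference between the shares was not tested. After AZ82 it was 1 gene higher, Ndel1, against 6.65% of all genes not overlapping and higher, and 0 lower against 8.62%, where 15.3% of all genes did not overlap in either direction. After CW069 it was 3 higher (Dynlrb2, Dctn1 and Dctn2) against 6.13% of all genes, and 1 lower (Ninl) against 7.24%. In either direction the 4 genes are 14.3% of the 28, and 13.4% of all genes did not overlap. The summed Leydig markers also did not overlap, at 1386 to 1443 CPM after CW069 and 1692 to 1806 CPM in Control, and their part in these 4 differences was not tested. With the mean of both inhibitor groups set against Control, no gene of the 28 passed the adjusted threshold, where 0.00632% of all genes did. At an unadjusted p under 0.05 there was 1, against 9.57% of all genes, in edgeR, DESeq2 and limma-voom alike, and 0 did not overlap, against 5.11%. For 26 of the 28 the interval lay within 1.5-fold, against 75.5% of all genes. The smallest p was that of Ndel1, at 0.16 ± 0.06 (edgeR unadjusted p = 0.0301, adjusted p = 0.506), and its value without Control 3 was 0.10 (unadjusted p = 0.15). Without Control 3 there were 2 genes at an unadjusted p under 0.05. Dctn1 was then at 0.17 ± 0.06 (edgeR unadjusted p = 0.0257, adjusted p = 0.524). Pafah1b1 was at -0.15 ± 0.06 (edgeR unadjusted p = 0.0435, adjusted p = 0.555).

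**Figure D5:**
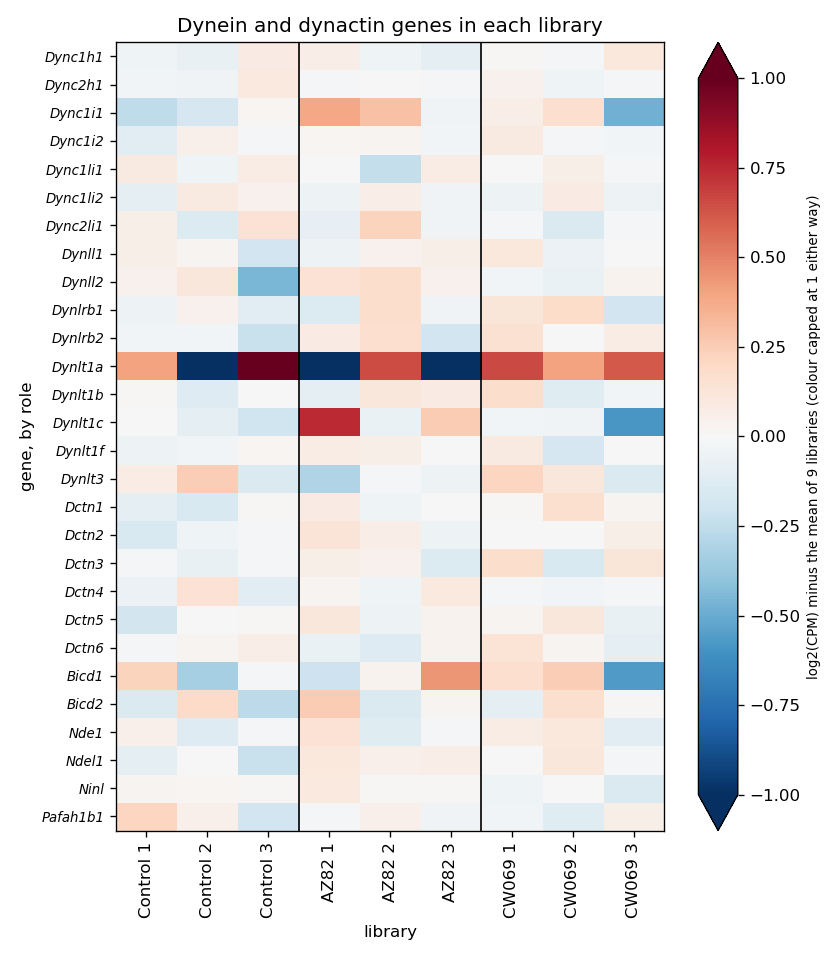
Log2 CPM of each of the 28 genes in each of the 9 libraries, minus that gene's mean over the libraries (red above, blue below, colour capped at 1 either way). Most rows are pale, Dynlt1a changes colour within Control and AZ82, and Dynll2 is blue in Control 3.

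The compounds were given at different doses, 1 µM and 50 µM, so a difference between their groups is one of these treatments and not of the compounds at a matched dose. Between CW069 and AZ82 no gene of the 28 passed an adjusted p of 0.05, as 0% of all genes did. At an unadjusted p under 0.05 there was 1 in edgeR, DESeq2 and limma-voom alike, which by edgeR was Dynlt1c, lower, against 4.97% of all genes and 2.39% lower. Dynlt1c was lower after CW069 by a log2 difference of -0.54 ± 0.20 (-0.98 to -0.11; edgeR unadjusted p = 0.0185, adjusted p = 0.962), although AZ82 2 lay below CW069 1 and 2. The difference was -0.30 without AZ82 1, and 0 of the 28 genes then had an unadjusted p under 0.05, as also without CW069 3. By edgeR there were 2 such genes without Control 3, 2 without AZ82 2 and 2 with the compared groups alone. Dynlt1a was at 0.93 ± 0.66 (adjusted p = 0.999), Dynlt3 at 0.18 ± 0.13 (adjusted p = 0.999) and Ninl at -0.10 ± 0.06 (adjusted p = 0.999). Dynll2 and Ninl were lower in every CW069 library than in any AZ82 library, against 5.8% of all genes lower without overlap. The summed elongating spermatid markers were also lower in each CW069 library (12768 to 14962 CPM) than in any AZ82 library (15730 to 19127 CPM), and their part in these differences was not tested. For 24 of the 28 genes the 95% interval of the difference lay within 1.5-fold, against 71.1% of all genes.

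The balance between paralogs was measured as the ratio of their counts within a library, in 7 pairs. These ratios are of counts and not of level per length. Dync1i2 exceeded Dync1i1 by 13.3 to 23.6 times over the 9 libraries, Dync1li2 exceeded Dync1li1 by 11.8 to 16.7 times and Dynlrb2 exceeded Dynlrb1 by 3.61 to 4.95 times. Ndel1 exceeded Nde1 by 3.22 to 4.21 times and Bicd2 exceeded Bicd1 by 32.6 to 65.1 times, and Dynll1 and Dynll2 traded places with ratios from 0.831 to 1.14. The largest difference after AZ82 was in Dync1i1 to Dync1i2, at 0.31 on the log2 scale (exact two-sided permutation p = 0.2, adjusted p = 0.7 over the 7 pairs). No pair reached an adjusted p below 0.7 in an exact permutation test, and with 3 libraries against 3 the smallest p possible is 0.1.

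A list of 44 related genes, chosen for their role, held the other dynactin subunits, further adaptors and regulators, and dynein chains filed under older symbols such as Wdr60, Wdr34 and Tctex1d2. Of these 43 were in the table and 42 were tested. After AZ82, after CW069 and between CW069 and AZ82, 0 passed the adjusted threshold with edgeR, DESeq2 or limma-voom. By edgeR the counts at an unadjusted p under 0.05 were 1 higher and 2 lower after AZ82, 2 higher and 0 lower after CW069, and 1 higher between CW069 and AZ82. The shares of all genes at that p were 8.84% (4.04% higher and 4.79% lower), 7.34% and 4.97%. The median log2 fold changes were 0.01 after AZ82, with 23 above 0 and 19 below, and 0.0042 after CW069, with 22 above and 20 below, where 49.7% and 49% of all genes were above 0.

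The related gene of smallest p after each inhibitor was Capza1, an actin capping protein subunit that sits at the barbed end of the dynactin filament and also caps actin filaments elsewhere. It was at 88.0, 88.9 and 139.9 CPM in Control, 131, 182.5 and 136 CPM after AZ82 and 199, 183 and 140.2 CPM after CW069. Control 3 lay inside the AZ82 range and just below the lowest CW069 library. The log2 fold change was 0.50 ± 0.20 (edgeR adjusted p = 0.554) after AZ82 and 0.72 ± 0.20 (unadjusted p = 0.00434, adjusted p = 0.524) after CW069. Its paralog Capza2 went the other way after AZ82, at -0.20 ± 0.09 (adjusted p = 0.554).

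The rest of the related genes named by smallest p were mostly adaptors and microtubule end proteins. After AZ82 the microtubule end-binding gene Mapre3 was at 0.25 ± 0.12 (edgeR adjusted p = 0.569) and Bicdl1, an adaptor of the BICD family, at -0.33 ± 0.14 (adjusted p = 0.561). After CW069 the plus-end protein gene Clip1 was at 0.20 ± 0.09 (edgeR adjusted p = 0.675), the mitochondrial adaptor Trak2 at -0.19 ± 0.09 (adjusted p = 0.689) and Cenpf, a kinetochore gene, at -0.09 ± 0.07 (adjusted p = 0.772). None of these values passed the test over all genes.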

How the data were processed

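Per the labels, total RNA of mouse testis was made into stranded mRNA libraries. The authors deposited raw read counts per gene. The submitters' processing notes name Trimmomatic, HISAT2, HTSeq and GRCm39; settings are not given in the sources used here. Values were checked to be whole numbers, and each of 9 libraries' own counts equalled its column of the joint table. The table holds 0 mitochondrially encoded genes.

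After filterByExpr by group and TMM scaling, edgeR 4.0.16 under R 4.3.3 was run on all 9 libraries together, with 6 residual degrees of freedom, the two-sided quasi-likelihood F test and Benjamini-Hochberg adjustment over 15834 genes. CPM are TMM-scaled. DESeq2 1.42.0, limma-voom (limma 3.58.1), RLE factors, other filters, fits of the compared groups alone, a replicate block and each library left out were alternatives. Lengths and coding sequences came from GENCODE M21 (GRCm38), another build, so no gene coordinates are given. Scripts were tested on simulated data. The genes and lists were chosen with earlier results of these data known. Genes given in full were those called, those of smallest p per direction, the highest per length in each role, and Dync1h1, Dctn1 and Pafah1b1. Neighbours of Dynlt1a and the per-library detail of Dynll2 and Capza1 were chosen after their values were seen.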

Additional observations from a re-analysis of the deposited data

How the results depend on the processing

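No gene of the 28 was called in any of the 4 comparisons under any alternative run: RLE factors, no filter, at least 1 CPM in 3 libraries, DESeq2, limma-voom, the compared groups alone (not run for the mean of both inhibitors, which uses all libraries), the replicate block, an adjusted p under 0.1 and each library left out. No sign was found that the replicate numbers pair the libraries, and the labels do not say whether they do. Same-numbered libraries had correlations of deviations from -0.131 to 0.0636, with 0 of 9 over 0.1, and 1 of 9 libraries was closest to its own number. With the replicate block the count called was 0 in every comparison. Over all genes, edgeR called 0 after AZ82, 0 after CW069, 0 between them and 1 for the mean of both, where DESeq2 called 6, 28, 13 and 12, limma-voom 1, 0, 0 and 1, and edgeR with the replicate block 0 each. With a library left out, the median log2 fold change after CW069 ran from 0.0039 to 0.06. The median level per length in Control was 28.7 CPM per kilobase, 51.5 with the mean length over transcripts and 30.5 with the longest coding transcript (chosen after seeing the data), and 25.7 to 28.8 with a Control library left out. Without Control 3 the medians were 0.03 after AZ82 and 0.02 after CW069, with 20 and 18 of 28 above 0.

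Signs turned in genes near 0, none of them called, and the cause was not tested. After CW069, Dynlt1a was at 0.42 with limma-voom and 0.041 with the replicate block. Dynlt3 was at 0.0048 with RLE factors, 0.0053 with DESeq2, 0.0013 with the block and 0.0033 with the compared groups alone. Dctn6 was at 0.0083, 0.0079 and 0.0068 with RLE factors, DESeq2 and the groups alone, and 0.0010 with no filter. With each library left out, log2 fold changes after AZ82 ran from -0.057 to 0.033 for Dync1h1, -0.010 to 0.065 for Dync1i2, -0.069 to 0.018 for Dync1li2, -0.085 to 0.074 for Dync2li1, -0.027 to 0.101 for Dynll1, -0.0090 to 0.036 for Ninl and -0.136 to 0.067 for Pafah1b1. After CW069 they ran from -0.063 to 0.246 for Dync1i1, -0.068 to 0.0235 for Dync1li2, -0.024 to 0.099 for Dynll1, -0.48 to 0.82 for Dynlt1a, -0.033 to 0.114 for Dynlt1b, -0.19 to 0.064 for Dynlt1c, -0.099 to 0.097 for Dynlt3, -0.059 to 0.056 for Dctn6 and -0.159 to 0.0395 for Pafah1b1.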
